A study of Mus musculus with 51 samples.

Results

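The Zfp genes described here are the 187 mouse genes whose symbol is Zfp followed only by digits and whose Ensembl identifier was listed in all 6 tissue tables of a study of Roux-en-Y gastric bypass (RYGB). They were chosen by name and presence alone, from 299 genes with such a symbol in at least 1 table and from 8228 genes of any kind in all 6 tables. Messenger RNA was sequenced from male C57Bl6 mice with diet-induced obesity, 9 weeks after RYGB or a sham operation, and is given per gene as CPM, read counts scaled to the library total. RYGB reroutes food from a small stomach pouch into the jejunum and past the duodenum. Duodenum, jejunum and subcutaneous white adipose tissue (WAT) each had 4 RYGB and 5 sham libraries. Ileum had 2 RYGB and 5 sham libraries, liver 5 RYGB and 4 sham, and gastrocnemius muscle 4 of each. All animals had first received a liquid elemental diet and then high-fat food. Sham mice were kept at the weight of the RYGB mice by limited rations, so that the operation and the feeding regime cannot be told apart. Every mouse was fasted overnight and killed at 10 am. The gut samples were villi scraped off after 5 min in cold EDTA, with the bowel limb of a sample not given in the sources used here. In the labels the 51 libraries come from 10 animals, 5 for each operation, so that one mouse often stands in several tissues. For muscle, the source label of the RYGB samples says sham, while their titles and surgery labels say RYGB, and the titles were followed.

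C2H2 zinc finger proteins hold tandem fingers, each folded around a zinc ion and able to contact a few bases of DNA, and they form the largest family of transcription factors in mammals. Many carry a KRAB domain, which binds Trim28; Trim28 in turn brings in the histone methyltransferase Setdb1 and heterochromatin proteins, and the best-known targets are transposable elements. Other proteins with a Zfp symbol work differently, among them Zfp36 (tristetraprolin), which binds AU-rich elements and speeds the decay of cytokine and immediate early messages.

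A KRAB A box was found by script in the protein translated from the longest annotated coding sequence of 99 of the 187 genes. The median member had 11 C2H2 fingers and the highest number was 36; 6 members matched no C2H2 finger, among them Zfp36, which has CCCH fingers, Zfp503 and Zfp703. Chromosome 7 held 37 members, chromosome 17 held 30, chromosome 13 held 21 and chromosome 8 held 15. The largest cluster, defined as neighbouring members no more than 500 kb apart, lay on chromosome 17 (GRCm38, 21008903 to 23564238) with 17 members, 16 of them with a KRAB A box. Within it, Zfp942 and Zfp943 stand head to head with their annotated starts 95 bases apart, and Zfp944 is a close relative of Zfp942. Because these genes and their neighbour Zfp160 carry several of the results, their promoters are printed from RefSeq (GRCm38.p6), from 250 bases before to 50 bases after the start, 5′ to 3′ on the strand of the gene. Capitals mark CACGTG, an E-box, and CCGGAA, the core of an ETS factor site, searched on both strands. The motifs do not overlap in any of the promoters shown, and the coordinates are chr17:21962415-21962714 on the minus strand for Zfp942, chr17:21962309-21962608 on the plus strand for Zfp943, chr17:22361351-22361650 on the minus strand for Zfp944 and chr17:21008691-21008990 on the plus strand for Zfp160.
Zfp942: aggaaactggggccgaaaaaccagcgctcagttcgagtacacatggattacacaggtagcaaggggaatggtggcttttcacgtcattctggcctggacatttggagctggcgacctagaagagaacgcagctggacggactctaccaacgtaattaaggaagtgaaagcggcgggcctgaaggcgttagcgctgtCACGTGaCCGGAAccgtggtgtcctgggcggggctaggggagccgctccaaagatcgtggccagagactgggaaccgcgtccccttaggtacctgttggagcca
Zfp943: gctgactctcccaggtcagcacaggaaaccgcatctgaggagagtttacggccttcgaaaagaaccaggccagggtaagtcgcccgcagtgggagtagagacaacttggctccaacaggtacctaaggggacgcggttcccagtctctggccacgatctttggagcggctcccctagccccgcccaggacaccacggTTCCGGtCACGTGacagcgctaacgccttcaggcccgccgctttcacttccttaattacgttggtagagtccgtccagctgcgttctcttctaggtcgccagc
Zfp944: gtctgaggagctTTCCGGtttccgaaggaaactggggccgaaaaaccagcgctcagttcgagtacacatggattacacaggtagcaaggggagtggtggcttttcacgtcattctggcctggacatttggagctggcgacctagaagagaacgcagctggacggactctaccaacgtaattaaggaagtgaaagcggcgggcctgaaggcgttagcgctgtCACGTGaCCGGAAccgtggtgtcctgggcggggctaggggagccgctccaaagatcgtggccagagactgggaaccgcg
Zfp160: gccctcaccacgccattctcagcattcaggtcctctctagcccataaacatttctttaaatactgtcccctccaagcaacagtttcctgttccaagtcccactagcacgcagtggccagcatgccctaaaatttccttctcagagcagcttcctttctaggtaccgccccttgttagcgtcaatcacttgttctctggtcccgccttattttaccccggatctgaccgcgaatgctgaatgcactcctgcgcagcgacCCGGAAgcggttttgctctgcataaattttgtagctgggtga
The Zfp942 and Zfp943 promoters share 194 bases, read on opposite strands, so both show the same CACGTG beside the same ETS core. The Zfp944 promoter matched that of Zfp942 at 274 of 275 aligned bases (99.6%). A promoter was available for 155 members. CCGGAA occurred in 66 of them (42.6%), against 16.7% of 27025 genes with a RefSeq promoter. Those 27025 genes were not limited to the tissue tables, whereas every member was listed in all 6. The motif GGGCGG, a GC box not marked above, was also more frequent in the members. It occurred in 79 of the 155 (51.0%), against 38.2% of all genes with a promoter. CACGTG occurred in 14 of the 155 (9.0%), against 8.1% of all genes with a promoter. Both motifs together occurred in 6 of the 155 (3.9%), against 1.6% of all. A match is only a run of letters in the window and says nothing of binding.

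The tissue markers fitted the labels in all 6 tissues: the summed CPM of liver markers was at least 42915 in every liver library, adipocyte markers reached at least 19659 in every WAT library, muscle markers at least 62296 in every muscle library and enterocyte markers at least 19374 in every gut library. Some libraries stood apart. Sham 4 of ileum had 4461 CPM of crypt and proliferation markers and 19374 CPM of enterocyte markers, while no other ileum library exceeded 442 or fell under 63510. In duodenum, 4 libraries, RYGB 2 and sham 1, 2 and 3, held 1.67% to 9.39% of their CPM in pancreatic acinar transcripts, against at most 0.163% in the other libraries. In liver, the low values of RYGB 2, 3 and 4 and of sham 1 and 2 came in coarse steps, with 9 to 11 distinct values between 0 and 2 CPM, against 21 in the other livers; read totals were not given in the sources used here. In all of these bulk samples, fewer cells of a type and less RNA per cell cannot be told apart.

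Most Zfp genes were expressed at low levels. The median member had 8.78 to 17.4 CPM depending on the tissue, against 15.1 to 25.6 CPM for all genes of the same tables. Per kb of exon, the scale on which genes can be compared, Zfp706 had the highest level in duodenum (72.7 CPM per kb), jejunum (54.0) and liver (62.5). Zfp36 led in ileum (59.6 CPM per kb), Zfp207 in WAT (32.6) and Zfp106 in muscle (164 CPM per kb). Zfp207 is a microtubule-binding protein of the spindle, and Zfp106 is an RNA-binding protein that mice need for normal muscle innervation. The lowest member on this scale was Zfp458 in jejunum, ileum, WAT and muscle, at 0.156 to 0.224 CPM per kb.

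The Zfp genes as a group leaned lower after RYGB in jejunum, liver and WAT, and higher in duodenum, where the sign turned once the GC trend described below was removed; in muscle they stayed near the level of all genes. In jejunum the median log2 fold change (RYGB minus sham, on log2(CPM + 1)) was -0.29 over the members, 0.08 over all genes and 0.11 over other genes of similar mean CPM. The liver medians were -0.23 for the members, 0.26 for all genes and 0.39 for genes of similar CPM. In WAT they were -0.36, -0.16 and -0.12, and in duodenum 0.28, 0.15 and 0.15, in the same order. Ileum gave -0.15, -0.085 and -0.12, and muscle -0.037, -0.003 and 0.006. Rescaling the libraries by median of ratios moved the median of all genes to -0.007 in duodenum, 0.015 in ileum, 0.087 in liver and 0.005 in WAT, and the member medians kept their sign at 0.13 in duodenum, -0.044 in ileum, -0.40 in liver and -0.20 in WAT. The duodenal excess over all genes was not seen without either of these libraries: without RYGB 4 the median was 0.153 over the members and 0.15 over all genes, and without sham 5 it was 0.188 and 0.181. These shares and medians describe the group and were not tested as a set.

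**Figure D1:**
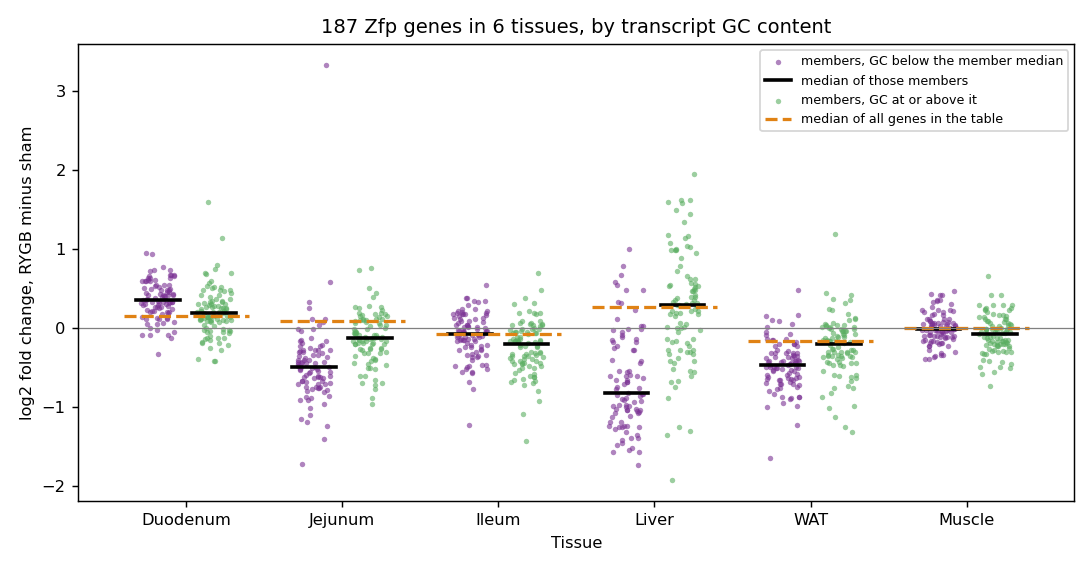
Log2 fold change (RYGB minus sham, y axis) of each of the 187 Zfp genes in 6 tissues (x axis), split at the median transcript GC content of the members; black bars are medians of the points and orange dashes the median of all genes in the table. The members of low GC sit lowest in liver (median -0.83), jejunum (-0.50) and WAT (-0.48) and highest in duodenum (0.35; the duodenal median of all members turned to -0.024 with the GC trend removed).

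Transcript GC content moved with these differences. The longest transcripts of the members had a median GC content of 42.7%, against 49.7% over all genes. In liver, the 93 members with GC below the member median had a median log2 fold change of -0.83, and the 94 others 0.28. In jejunum these medians were -0.50 and -0.13, in WAT -0.48 and -0.20, and in duodenum 0.35 and 0.19. Other genes of similar GC content had medians of -0.036 in jejunum, -0.16 in liver, -0.28 in WAT and 0.31 in duodenum. Once each library's trend with GC was removed, the member medians were -0.24 in jejunum, -0.16 in liver, -0.073 in WAT and -0.024 in duodenum, where the sign turned. What part GC content has in any single gene's difference was not tested.

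A gene is called changed below when limma's Benjamini-Hochberg adjusted p over all genes of the tissue was under 0.05. In jejunum 31 of the 187 members were called lower in RYGB (16.6%), where 6.29% of all genes were called lower, and 2 were called higher, where 6.32% of all genes were. Of other genes of similar mean CPM 4.87% were called lower, and of other genes of similar GC content 8.23%. In liver 14 members were called lower (7.49%), where 2.60% of all genes, 1.8% of genes of similar CPM and 4.78% of genes of similar GC were, and 2 were called higher, where 2.03% of all genes were. In WAT 60 members were called lower (32.1%), where 26.3% of all genes were, and 1 was called higher, where 14.3% of all genes were. The share of genes called lower in WAT was 23.2% at similar CPM and 32.3% at similar GC content, which is as high as in the members. No member was called in duodenum, ileum or muscle by limma. Of all genes there, 0.128%, 0% and 0% were called higher and 0.220%, 0% and 0% lower. At an unadjusted limma p under 0.05 the members counted 23 higher and 0 lower in duodenum. These counts were 0 and 6 in ileum, and 0 and 7 in muscle. The shares of all genes at that unadjusted limit are not given here, so these counts describe the members only. In duodenum 63.6% of all genes and 82.9% of the members had a log2 fold change above 0. In all, 83 members were called in at least 1 tissue and 104 in none. Every RYGB library lay below every sham library for 30 members and 744 of 11021 genes in jejunum. These counts were 38 and 824 of 10285 in liver, and 44 and 2786 of 12690 in WAT. The reverse held for 4 members and 830 genes in jejunum, 4 and 446 in liver, and 2 and 1482 in WAT. Separate ranges named below are mostly those of genes picked by p and are no further support for them.

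**Figure D2:**
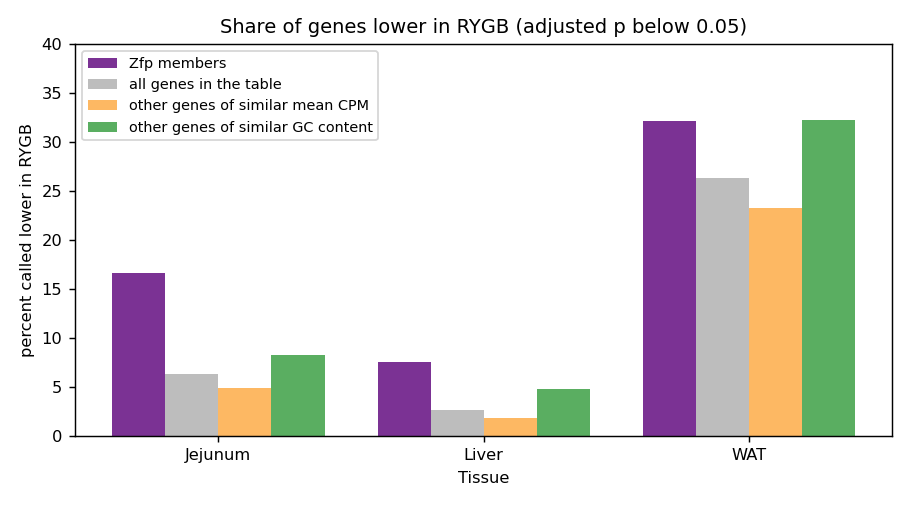
Percent of genes called lower in RYGB (y axis, limma adjusted p below 0.05) in jejunum, liver and WAT (x axis), for the Zfp members, all genes of the table, other genes of similar mean CPM and other genes of similar GC content. The member bar stands above the other bars in jejunum (16.6%) and liver (7.49%), and level with the genes of similar GC in WAT (32.1% and 32.3%).

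In jejunum, the KRAB genes Zfp160, Zfp442, Zfp942 and Zfp943 fell with the smallest p among the members called lower. Zfp160 had 12.2, 10.0, 10.8 and 19 CPM in RYGB, against 39.1, 34.5, 30.8, 35.4 and 36.2 CPM in sham. Every RYGB library lay below every sham library, and the log2 fold change was -1.41 ± 0.19 (SE, limma adjusted p = 0.0034). Zfp942 had 17.6, 18.4, 19.8 and 25.9 CPM in RYGB, against 53.9, 60.8, 36.8, 45.8 and 38.6 CPM in sham, again with no overlap (-1.16 ± 0.19, limma adjusted p = 0.0068). Its head-to-head partner Zfp943 had 18.7, 17.1, 13.5 and 20.9 CPM in RYGB, against 40.1, 43.6, 44.4, 39.2 and 28.1 CPM in sham. The groups did not overlap, and the fold change was nearly that of Zfp942 (-1.11 ± 0.18, limma adjusted p = 0.0069). Zfp944, whose promoter is nearly the same, had 13.2, 10.2, 14.4 and 15.5 CPM in RYGB, against 20.3, 24.8, 20.4, 22.1 and 14.2 CPM in sham. These groups overlapped and the difference did not pass (-0.57 ± 0.20, limma adjusted p = 0.079). Zfp942 and Zfp944 share some sequence: 7.0% of the 50-base words of Zfp942 also occur in Zfp944, so a part of their reads could be assigned to either.

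Zfp442, on chromosome 2, had 1.5, 1.0, 1.4 and 2.5 CPM in RYGB, against 10.0, 10.8, 5.0, 6.6 and 6.3 CPM in sham. All RYGB libraries lay below all sham libraries, with a log2 fold change of -1.73 ± 0.27 (limma adjusted p = 0.0059). Its reads are less certain than those of the others, since 32.3% of its 50-base words occur in other genes, chiefly Zfp937. The X-linked KRAB gene Zfp182 had 8.3, 12.8, 8.9 and 11.5 CPM in RYGB, against 22.8, 18.2, 19.2, 22.8 and 18.7 CPM in sham (-0.92 ± 0.18, limma adjusted p = 0.012). Zfp655, without a KRAB match, had 44.0, 40.6, 31.8 and 41.9 CPM in RYGB, against 70.3, 73.1, 61.3, 59.4 and 70.3 CPM in sham (-0.75 ± 0.15, limma adjusted p = 0.012). Neither gene overlapped between the groups. Zfp101, on chromosome 17, averaged 5.45 ± 0.93 CPM in RYGB and 11.6 ± 1.33 CPM in sham (SD, n = 4 and 5; -0.97 ± 0.18, limma adjusted p = 0.011). The other members called lower ranged from -0.47 (Zfp236) to -1.25 (Zfp945) on the log2 scale.

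Of the 33 jejunal calls, 8 held whichever library was left out, namely those of Zfp160, Zfp442, Zfp942, Zfp943, Zfp182, Zfp655, Zfp101 and Zfp37. These 8 also held with the GC trend removed and under median-of-ratios scaling. Dropping RYGB 1, 3 or 4 gave 11, 9 or 54 called members, and dropping sham 1, 2, 3 or 4 gave 8, 9, 17 or 10. Crypt and proliferation markers (11 of 13 in the table) summed to 67.7 to 293 CPM in RYGB and 38.3 to 88.3 CPM in sham, and their part in the Zfp differences was not tested.

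The exception to the downward lean in jejunum was Zfp37, which encodes 12 C2H2 fingers and had no KRAB match. It had 36.2, 25.5, 35.3 and 4.0 CPM in RYGB, against 0.9, 0.5, 1.1, 1.5 and 1.4 CPM in sham. Even the lowest RYGB library, number 4, was above all sham libraries, and the log2 fold change was 3.33 ± 0.54 (limma adjusted p = 0.0069), the largest of any member in any tissue. Without RYGB 4 it was 4.01. In ileum the same gene had 14.8 and 8.5 CPM in RYGB, against 21.9, 12.6, 12, 2.9 and 16.1 CPM in sham, and the ranges overlapped (0.006 ± 0.68, limma adjusted p = 1.00). Duodenum had 0.8, 3.5, 8.1 and 1.2 CPM in RYGB, against 1.7, 1.7, 0.5, 0.6 and 6.8 CPM in sham. The tables of the segments were scaled separately, and no test of the sham levels between them was made. In WAT, Zfp37 had 3.2, 4.0, 6.3 and 3.8 CPM in RYGB, against 7.3, 6.5, 8.5, 6.0 and 7.1 CPM in sham. RYGB 3 lay within the sham range, and the gene was called lower (-0.63 ± 0.20, limma adjusted p = 0.029), a call lost under median-of-ratios scaling, with the GC or length trend removed and when any of RYGB 1 and 2 and sham 1, 2, 3 and 5 was left out (adjusted p up to 0.075). It was the only member called in opposite directions in different tissues. The other jejunal call upward was Zfp710, with 44.2, 33.7, 63.8 and 36.2 CPM in RYGB, against 25.7, 24.3, 28.4, 25.8 and 23.6 CPM in sham (0.73 ± 0.19, limma adjusted p = 0.032), a call lost when RYGB 1, RYGB 3 or any sham library was left out (adjusted p up to 0.079).

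**Figure D3:**
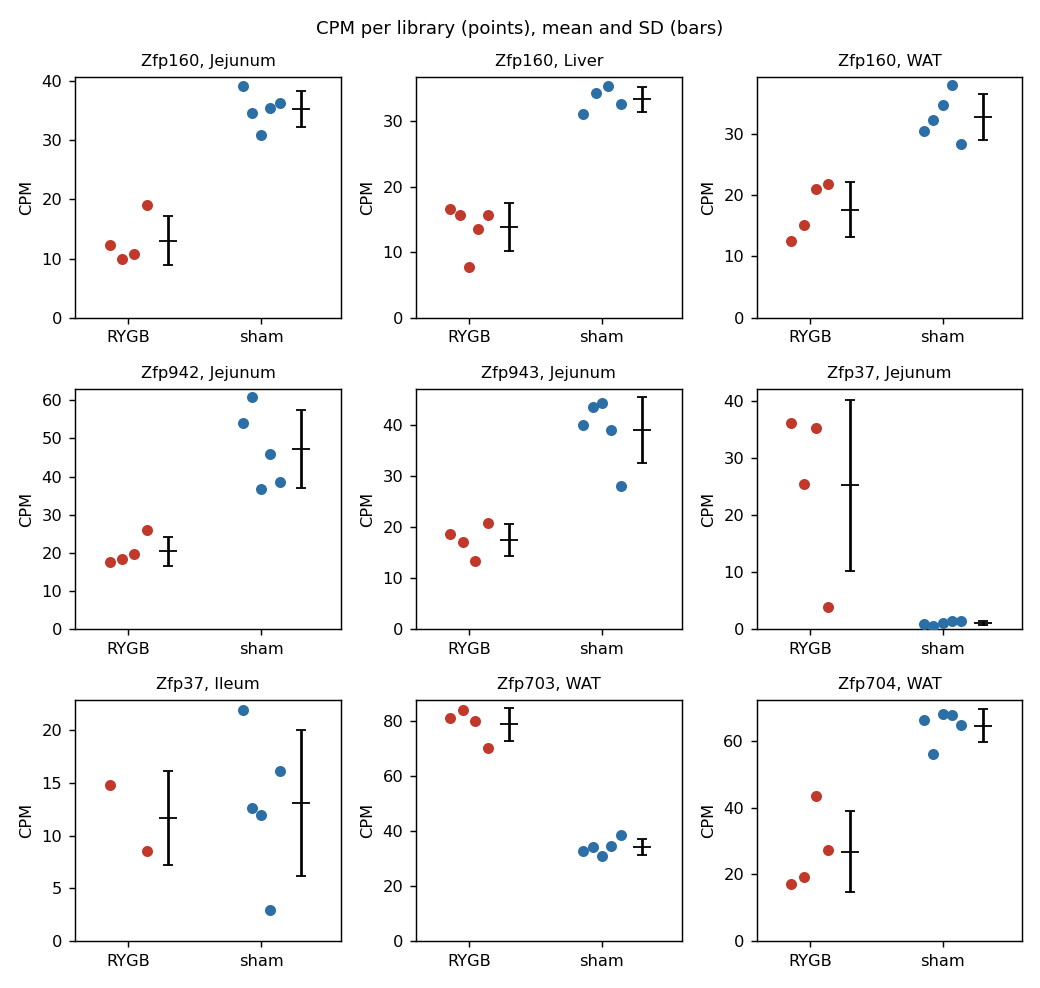
CPM (y axis) of each library, RYGB left and sham right, for Zfp160 in 3 tissues, Zfp942, Zfp943 and Zfp37 in jejunum, Zfp37 in ileum, and Zfp703 and Zfp704 in WAT; points are libraries and bars the mean and SD. The groups stand apart in every panel except that of Zfp37 in ileum, where 8.5 to 14.8 CPM in RYGB lie within 2.9 to 21.9 CPM in sham.

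In liver, genes of the same chromosome 17 cluster were called lower. Zfp943 had 27.7, 31.0, 18.7, 21.1 and 37.9 CPM in RYGB, against 54.8, 70.5, 108.8 and 74.4 CPM in sham (-1.47 ± 0.31, limma adjusted p = 0.039). Zfp942 had 53.0, 26.1, 13.9, 28.0 and 32.6 CPM in RYGB, against 66.1, 83.1, 104.5 and 89.9 CPM in sham (-1.55 ± 0.36, limma adjusted p = 0.042). Here Zfp944 passed as well, with 25.8, 25.2, 11, 15.9 and 20.7 CPM in RYGB, against 40.7, 48.8, 54.4 and 106.0 CPM in sham (-1.58 ± 0.37, limma adjusted p = 0.042). None of these genes overlapped between the groups. Zfp760, which lies in the same cluster, had 16, 7.6, 4.8, 9.3 and 10.6 CPM in RYGB, against 23.1, 25.3, 44.7 and 41.6 CPM in sham (-1.73 ± 0.38, limma adjusted p = 0.039). Zfp160 averaged 13.8 ± 3.61 CPM in RYGB and 33.3 ± 1.90 CPM in sham (SD, n = 5 and 4; -1.25 ± 0.31, limma adjusted p = 0.047). Outside the cluster, Zfp367 had 70.8, 42.9, 37.9, 44.6 and 66.6 CPM in RYGB, against 124.2, 96.6, 151.0 and 146.4 CPM in sham (-1.31 ± 0.28, limma adjusted p = 0.039). The group ranges were again separate.

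The liver calls upward were Zfp954 and Zfp623, both low in sham. Zfp954 had 1.7, 7.2, 6.0, 7.0 and 3.4 CPM in RYGB, against 1.2, 0.5, 0.1 and 0.2 CPM in sham (1.95 ± 0.42, limma adjusted p = 0.039). Zfp623 had 9.0, 9.9, 15.5, 12.8 and 7.4 CPM in RYGB, against 4.6, 4.0, 1.0 and 2.9 CPM in sham (1.59 ± 0.41, limma adjusted p = 0.048). The lowest RYGB library of either gene was above its highest sham library. All 16 liver calls were near the threshold, and none held whichever library was left out. Leaving out any of RYGB 2, 3 and 4 or sham 2, 3 and 4 left 0 members called, while dropping RYGB 1, RYGB 5 or sham 1 gave 49, 25 or 29. Among the 5 libraries with coarse steps alone the median was -0.57 over the members and -0.006 over all genes, with 18 members called lower and 2 higher. Among the other 4 libraries it was 0.056 over the members and 0.41 over all genes, with 1 member called lower and 3 higher. With the GC trend removed, 2 members were called lower and 2 higher. The shares of all genes called in these changed fits are not given here, so the counts describe the members only. Macrophage markers (7 of 8 in the table) summed to 107 to 1149 CPM in RYGB livers and 76.0 to 218 CPM in sham livers, and their part was not tested.

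WAT had the most called members, in a tissue where 40.6% of all genes were called. Zfp704 had the largest fall after Zfp871, with 17.1, 19.3, 43.6 and 27.2 CPM in RYGB, against 66.2, 56.2, 68.1, 67.7 and 64.6 CPM in sham (-1.33 ± 0.23, limma adjusted p = 0.0018). Zfp367 had 21.2, 14.3, 42.7 and 30.8 CPM in RYGB, against 65.5, 62.6, 64.0, 69.5 and 49.1 CPM in sham (-1.26 ± 0.26, limma adjusted p = 0.0041). Zfp462, a chromatin protein with 33 fingers, had 10.3, 5.5, 14.3 and 10.9 CPM in RYGB, against 19.9, 18.8, 22.3, 26.9 and 25.9 CPM in sham (-1.13 ± 0.24, limma adjusted p = 0.0040). The ranges of these genes were separate, and RYGB 3 was the RYGB library nearest to sham in each. The KRAB gene Zfp266 had 46.3, 34.7, 108.0 and 51.3 CPM in RYGB, against 128.2, 129.8, 131.4, 137.9 and 119.8 CPM in sham (-1.23 ± 0.26, limma adjusted p = 0.0046). Zfp871, another KRAB gene, had 8.6, 4.9, 31.5 and 11.7 CPM in RYGB, against 44.0, 31.8, 40.3, 38.1 and 35.7 CPM in sham (-1.65 ± 0.39, limma adjusted p = 0.0072). Without RYGB 3 its log2 fold change was -2.11. Zfp160 had 12.6, 15.1, 21 and 21.9 CPM in RYGB, against 30.5, 32.3, 34.8, 38.0 and 28.3 CPM in sham, without overlap (-0.88 ± 0.18, limma adjusted p = 0.0035).

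The only member called higher in WAT was Zfp703, a transcriptional corepressor known as an oncogene in human breast tumours. It had 80.9, 83.9, 79.7 and 69.9 CPM in RYGB, against 32.6, 34.0, 30.9, 34.5 and 38.6 CPM in sham. The groups were far apart with little spread within either, and the log2 fold change was 1.18 ± 0.12 (limma adjusted p = 0.00011), the smallest adjusted p of any member in any tissue. It lay between 1.15 and 1.24 whichever library was left out. In duodenum the same gene averaged 27.4 ± 10.7 CPM in RYGB and 36.4 ± 10.7 CPM in sham (SD, n = 4 and 5; -0.42 ± 0.28, limma adjusted p = 0.40).

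Of the 61 WAT calls, 31 held whichever library was left out, 22 held with the GC trend removed and 42 under median-of-ratios scaling, and 18 held under all of these. The 18 were Zfp703 and 17 lower genes, among them Zfp160, Zfp266, Zfp367, Zfp397, Zfp462, Zfp664, Zfp704 and Zfp871. With the GC trend removed, 23 members were called lower and 5 higher. The share of all genes called under that setting is not given here, so these counts describe the members only. Dropping RYGB 1 or 2 gave 34 or 39 called members, and dropping sham 1, 2, 3, 4 or 5 gave 37, 38, 33, 35 or 40. Adipocyte markers (7 of 7 in the table, 1 called higher and 1 lower, median 0.226) summed to 22140 to 59431 CPM in RYGB and 19659 to 23298 CPM in sham. Lymphocyte markers (10 of 11 in the table, 1 called higher and 0 lower, median 0.715) summed to 26.3 to 806 CPM in RYGB and 46.3 to 79.2 CPM in sham. Macrophage markers (7 of 8 in the table, 2 called higher and 3 lower, median 0.213) summed to 581 to 1087 CPM in RYGB and 517 to 864 CPM in sham. Smooth muscle and fibroblast markers (8 of 9 in the table, 4 called lower and 1 higher, median -0.79) summed to 1457 to 4620 CPM in RYGB and 3103 to 4047 CPM in sham. Endothelial markers (6 of 6, 1 called lower, median -0.51) summed to 684 to 1562 CPM in RYGB and 1280 to 1707 CPM in sham. The part of these markers in the Zfp differences was not tested.

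The tissues shared part of their calls. Called lower in at least 2 tissues were 23 members, of which 17 had a KRAB A box, 7 lay on chromosome 17 and 6 on chromosome 13. They are 12.3% of the members, and 305 of the 8228 genes in all 6 tables (3.71%) were called lower in at least 2 tissues. Called lower in jejunum and liver were 7 members, 22.6% of the jejunal and 50% of the liver calls; jejunum and WAT shared 15, which is 48.4% of the jejunal and 25% of the WAT calls. Liver and WAT shared 7, which is 50% of the liver and 11.7% of the WAT calls. The tissues come from overlapping sets of animals, so these are not independent samples of mice. Over all genes in the 6 tables the shared calls were 11.3% of the jejunal and 25.2% of the liver calls for jejunum and liver, 43.0% of the jejunal and 9.00% of the WAT calls for jejunum and WAT, and 49.1% of the liver and 4.61% of the WAT calls for liver and WAT. Read as a share of the jejunal calls, the overlap of jejunum with WAT was thus near that of all genes, as was the overlap of liver with WAT as a share of the liver calls. Zfp160, Zfp397 and Zfp943 were called lower in all of jejunum, liver and WAT. Zfp397, on chromosome 18, averaged 52.5 ± 19.2 CPM in RYGB and 117 ± 7.74 CPM in sham livers (SD, n = 5 and 4), a log2 fold change of -1.20 ± 0.28 (limma adjusted p = 0.043). Its changes were -0.67 in jejunum (limma adjusted p = 0.030) and -0.72 in WAT (limma adjusted p = 0.0040). The jejunal call of Zfp397 and the WAT call of Zfp943 were lost when single libraries were left out (adjusted p up to 0.081 in each). So were the liver calls of Zfp160, Zfp397 and Zfp943 (limma adjusted p up to 0.16, 0.15 and 0.15). All of these calls were also lost with the GC trend removed. The WAT call of Zfp943 was lost under median-of-ratios scaling and with the exon length trend removed as well.

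**Figure D4:**
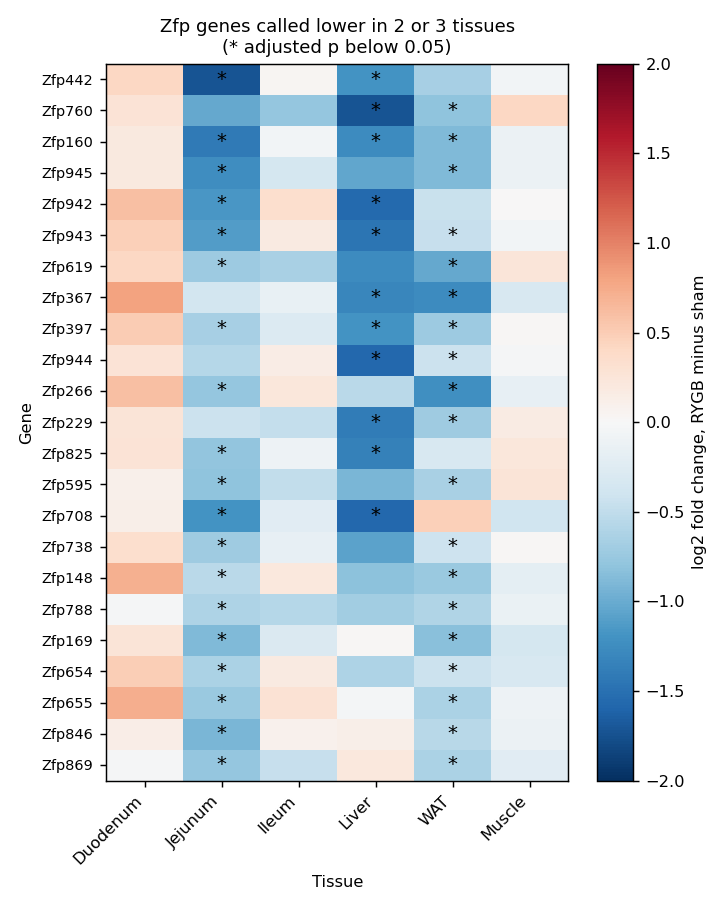
Log2 fold change (RYGB minus sham, colour, blue lower in RYGB) of the 23 Zfp genes called lower in 2 or 3 tissues (rows) across the 6 tissues (columns); asterisks mark limma adjusted p below 0.05. Blue fills most of jejunum, liver and WAT, where the rows were chosen, with exceptions such as Zfp708 in WAT (0.48) and Zfp169 in liver (0.021). Duodenum holds mostly pale red and muscle little colour.

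In promoters, CCGGAA occurred in 11 of the 21 of these 23 genes that had one (52.4%), against 42.6% of all members with a promoter. CACGTG occurred in 5 of the 21 (23.8%), and both motifs in 3 (14.3%), namely the Zfp942, Zfp943 and Zfp944 promoters printed above. Since these 3 share sequence, they are not separate occurrences.

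By position, the chromosome 17 cluster from 21008903 to 23564238 had a median log2 fold change of -1.09 in liver, with 16 of 17 members below 0 and 6 called lower. In jejunum its median was -0.44 with 4 called lower, in WAT -0.48 with 9 called lower, in duodenum 0.35 and in muscle 0.002, with no calls in duodenum or muscle. The chromosome 13 cluster (67038596 to 67827002, 14 members) had medians of -0.87 in liver, -0.58 in jejunum and -0.32 in WAT, with 1, 4 and 4 called lower. All 14 lay below 0 in jejunum. These counts stand against 2.60% of all genes called lower in liver, 6.29% in jejunum and 26.3% in WAT. With the GC trend removed, the chromosome 17 cluster had 0 lower calls by limma in liver, 4 in jejunum and 1 in WAT, and the chromosome 13 cluster 0, 0 and 1, with a WAT median that turned to 0.091. The 37 members on chromosome 7 had a liver median of 0.21 with 1 called higher and 0 lower by limma; under median-of-ratios scaling the median was -0.002 with 1 called higher and 3 lower. The members on chromosomes 17 and 13 also had low GC contents, with medians of 39.4% and 39.6%, against 47.1% on chromosome 7. With the GC trend removed, the liver medians were -0.35 on chromosome 17, -0.23 on chromosome 13 and -0.055 on chromosome 7.

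By protein class, the 99 members with a KRAB A box match had a jejunal median of -0.44, with 21 called lower and 0 higher. For the 88 without a match the median was -0.19, with 10 called lower and 2 higher. A missing match does not show that the box is absent. The lower calls were 21.2% and 11.4% of these classes, where 6.29% of all genes were called lower and 6.32% higher. In liver the medians of these classes were -0.33 and -0.033, with 10 and 4 called lower (10.1% and 4.55%, where 2.60% of all genes were). In WAT they were -0.43 and -0.29, with 35 and 25 called lower (35.4% and 28.4%, where 26.3% of all genes were). The classes differed in GC content too, with medians of 40.7% and 47.1%, and with the GC trend removed the medians were -0.33 and -0.18 in jejunum, -0.15 and -0.28 in liver, and -0.089 and -0.062 in WAT. The order in liver was thus turned by that correction, and the lower calls of both classes became 15 and 6 in jejunum, 1 and 1 in liver, and 10 and 13 in WAT. Members with 15 or more fingers (45 genes) had medians of -0.45 in jejunum, -0.69 in liver and -0.48 in WAT, and those with under 5 fingers (30 genes) -0.18, -0.024 and -0.30 in the same order. These classes differed in GC content as well, with medians of 40.3% and 47.7%, and with the GC trend removed their medians were -0.33 and -0.17 in jejunum, -0.38 and -0.25 in liver, and -0.12 and -0.049 in WAT.

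**Figure D5:**
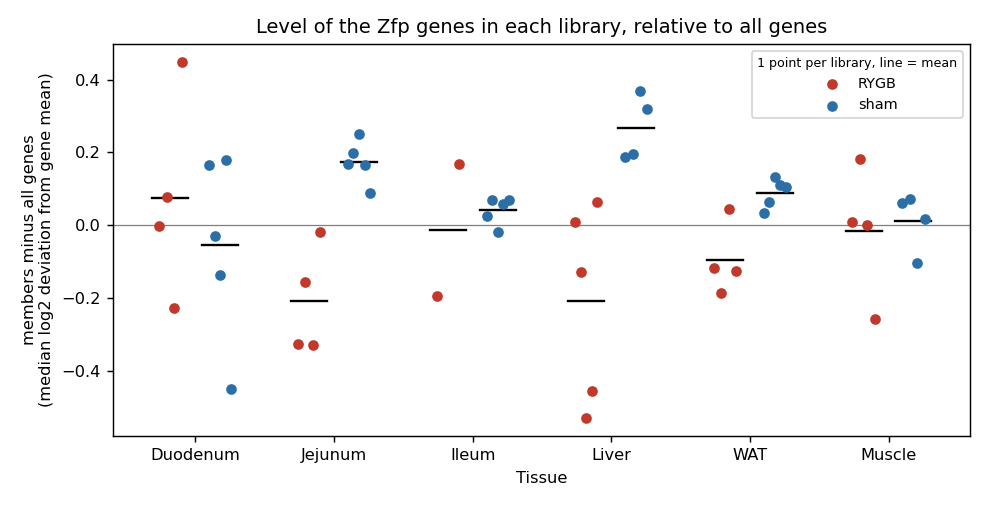
Level of the Zfp genes relative to all genes in each library (y axis: median over the members of the log2 deviation from the gene's mean in the tissue, minus the same median over all genes), RYGB left of sham in each tissue (x axis); points are libraries and lines group means. RYGB libraries lie below all sham libraries in jejunum (-0.33 to -0.020, against 0.089 to 0.25) and liver (-0.53 to 0.065, against 0.19 to 0.37), and the groups overlap in the other tissues.

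Duodenum, the segment bypassed by food, went the other way in sign, without any call. Zfp704 had the smallest p among the members, with 22.8, 6.7, 3.2 and 19 CPM in RYGB, against 3.7, 3.3, 1.7, 2.9 and 2.3 CPM in sham. RYGB 3 fell within the sham range, and the log2 fold change was 1.59 ± 0.45 (limma adjusted p = 0.091). Without RYGB 3 it was 2.06 (limma adjusted p = 0.0091), and 7 members were then called. The share of all genes called in that fit is not given here. Zfp568, a KRAB protein known to silence a placental promoter of Igf2 in mouse embryos, had 19.4, 15, 13.6 and 24 CPM in RYGB, against 9.5, 8.6, 9.0, 14 and 10.0 CPM in sham (0.75 ± 0.23, limma adjusted p = 0.096). Zfp91, a ubiquitin ligase, had 255.7, 305.8, 201.3 and 277.7 CPM in RYGB, against 207.7, 177.6, 164.3, 167.7 and 151.6 CPM in sham (0.57 ± 0.18, limma adjusted p = 0.10). In both genes a single library crossed into the other group's range. Without the 4 libraries rich in pancreatic transcripts the member median was 0.34, with 0 members called. Crypt and proliferation markers (10 of 13 in the table) summed to 50.2 to 791 CPM in RYGB and 36.2 to 60.7 CPM in sham duodenum. Their part in the Zfp differences was not tested.

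Whether the RYGB difference of a gene differed between segments was tested in the 3 RYGB and 5 sham animals that gave both, with the animal as a block. In jejunum minus duodenum, 5 members were called lower (2.67%), where 1.88% of all genes were, so the member share was near that of all genes. Called higher were 0 members, where 0.525% of all genes were. The members called lower were Zfp442 (-2.14 ± 0.42, limma adjusted p = 0.025), Zfp942 (-1.64 ± 0.34, adjusted p = 0.028), Zfp655 (-1.52 ± 0.33, adjusted p = 0.035), Zfp943 (-1.58 ± 0.35, adjusted p = 0.038) and Zfp266 (-1.27 ± 0.29, adjusted p = 0.040). Each had a negative difference in jejunum and a positive one in duodenum. Duodenal Zfp942, for example, had 34.6, 47.7, 28.2 and 72.0 CPM in RYGB, against 38.0, 27.7, 21.1, 45.4 and 16.8 CPM in sham (0.60 ± 0.33, limma adjusted p = 0.30). Leaving out RYGB animal R2 or R5 or sham animal W12, W14 or W3 ended all 5 calls, with adjusted p from 0.053 to 0.14; without R4 those of Zfp655 and Zfp943 were lost (0.060 and 0.052), without W15 9 members were called, and median-of-ratios scaling kept those of Zfp442 and Zfp942.

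For WAT minus jejunum, 11 members were called higher (5.88%), where 10.1% of all genes were, and 19 lower (10.2%), where 19.7% were, so both shares of the members were below those of all genes. Under median-of-ratios scaling 23 members were called higher and 8 lower. The shares of all genes called under that scaling are not given here, so these counts describe the members only. The strongest was Zfp37 (-4.80 ± 0.29, limma adjusted p = 1.8e-05). Zfp704 (-2.10 ± 0.34, adjusted p = 0.0016) and Zfp703 (1.41 ± 0.19, adjusted p = 0.00082) followed, and these 3 were called whichever animal of this comparison was left out. The RYGB animals here were R1, R2 and R4. Animal R5, which gave the RYGB jejunum library with the least Zfp37, was in none of these fits. Nor was R3, which gave RYGB 3 of WAT, the RYGB library nearest to sham in Zfp704. In the separate fits of all libraries, the log2 fold change of Zfp37 was 3.33 in jejunum and -0.63 in WAT. Dropping sham animal W11, W12 or W15 gave 16, 16 or 15 called members, against 30. In jejunum Zfp704 had 4.3, 6.5, 3.8 and 10.1 CPM in RYGB, against 3.9, 2.9, 1.5, 3.3 and 4.1 CPM in sham, an overlapping pair of ranges.

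Ileum had 2 RYGB libraries, and none of its members passed. Zfp503 had 3.7 and 1.4 CPM in RYGB, against 9.7, 7.7, 7.1, 14.1 and 4.5 CPM in sham (-1.44 ± 0.57, limma adjusted p = 1.00). Zfp467, which promotes fat cell formation in mice, had 10.5 and 6.2 CPM in RYGB, against 22.7, 21.1, 22.3, 17.3 and 11.2 CPM in sham (-1.09 ± 0.42, limma adjusted p = 1.00). The group ranges were separate, but neither difference passed. Without sham 4, the library rich in proliferation markers, the member median was 0.064 and again 0 members were called.

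In muscle, Zfp146 had 20.6, 16.7, 14 and 22 CPM in RYGB, against 36.0, 32.8, 26.8 and 28.4 CPM in sham (-0.74 ± 0.19, limma adjusted p = 0.45). Zfp652, a transcriptional repressor, had 223.5, 270.5, 322.2 and 270.6 CPM in RYGB, against 396.3, 492.1, 338.9 and 404.8 CPM in sham (-0.58 ± 0.20, limma adjusted p = 0.59). Both pairs of ranges were separate without passing the test over 11594 genes. Zfp106 had 1971.7, 1196.3, 1637.9 and 1434.3 CPM in RYGB, against 1972.1, 1712.7, 2119.4 and 1664.2 CPM in sham (-0.28 ± 0.23, limma adjusted p = 0.84). These ranges overlapped.

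The 20 members listed by name for their known roles gave 0 calls in duodenum, ileum, liver and muscle, 3 lower calls in jejunum, and 7 lower and 1 higher call in WAT. The 7 are 35% of the 20, where 26.3% of all genes and 32.1% of the members were called lower in WAT. The 3 are 15% in jejunum, where 6.29% of all genes and 16.6% of the members were called lower. The jejunal calls were Zfp148 (-0.55), Zfp281 (-0.89) and Zfp292 (-0.75), with limma adjusted p of 0.035, 0.026 and 0.035. Zfp148 is a factor of GC-rich promoters, and Zfp281 is a related factor known in mouse embryonic stem cells. Zfp148 had 55.7, 73.2, 64.8 and 81.7 CPM in RYGB, against 106.1, 99.8, 104.6, 101.4 and 88.8 CPM in sham jejunum, and these ranges were separate. It was called in WAT too (-0.75 ± 0.18, limma adjusted p = 0.0086), a call lost with the exon length trend removed. The jejunal call of Zfp148 did not hold without RYGB 1, RYGB 3 or sham 1, 2, 3 or 4 (adjusted p up to 0.087) or with the GC trend removed.

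Among RNA-binding members, Zfp106 had 134.9, 102.1, 146.1 and 111.2 CPM in RYGB, against 239.5, 198.7, 239.3, 243.5 and 173.4 CPM in sham WAT. All RYGB libraries were lower (-0.82 ± 0.16, limma adjusted p = 0.0027); the call was lost with the exon length trend removed. In liver Zfp106 had 25.7, 80.3, 127.3, 91.7 and 55.5 CPM in RYGB, against 41.1, 32.9, 14 and 15.1 CPM in sham (1.49 ± 0.47, limma adjusted p = 0.069), with RYGB 1 inside the sham range. Beside this, 26.1% of the exon length of Zfp106 is overlapped by a gene on the opposite strand, and a strand setting was not given in the sources used here. Zfp36 had 41.2, 77.6, 33.3 and 57.9 CPM in RYGB, against 84.7, 74.2, 81.8, 76.4 and 86.3 CPM in sham WAT. RYGB 2 reached the sham range, and the gene was called lower (-0.68 ± 0.21, limma adjusted p = 0.027), a call lost under median-of-ratios scaling and without RYGB 1 or sham 1, 3 or 5 (adjusted p up to 0.072). In liver it had 80.3, 33.9, 18.2, 24.6 and 21 CPM in RYGB, against 27.6, 60.8, 186.3 and 619.0 CPM in sham, a spread too wide for a call (-1.93 ± 0.74, limma adjusted p = 0.10).

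Genes that work with the Zfp proteins were taken from lists named after them. The calls of the listed genes, here and in the next paragraph, come from the fits of all libraries. How these calls fare with libraries left out, other scaling or the GC trend removed is not given here. Of the KRAB silencing partners, 21 were in the WAT table, with 7 called lower (33.3%, where 26.3% of all genes were), 2 called higher (9.52%, where 14.3% were) and a median of -0.27, against -0.16 for all genes. Among the lower ones, Pphln1, a subunit of the HUSH silencing complex, averaged 43.7 ± 8.53 CPM in RYGB and 103 ± 11.1 CPM in sham (SD, n = 4 and 5; -1.23 ± 0.16, limma adjusted p = 0.00036). Fam208a, the HUSH subunit also called TASOR, was lower by -0.97 in WAT and by -1.25 in liver (limma adjusted p = 0.012 and 0.045). The chromatin remodeller Atrx was lower by -0.77 in jejunum and by -0.93 in WAT (limma adjusted p = 0.039 and 0.015). Trim28 itself, the direct partner of KRAB, averaged 74.0 ± 20.9 CPM in RYGB and 80.7 ± 9.09 CPM in sham WAT (-0.16 ± 0.18, limma adjusted p = 0.49), and 44.8 ± 23.9 CPM in RYGB and 52.5 ± 9.23 CPM in sham jejunum (-0.36 ± 0.31, limma adjusted p = 0.46). Neither these differences nor those of Setdb1 (-0.19 in WAT and -0.20 in jejunum) passed. In liver Trim28 averaged 18.8 ± 19.9 CPM in RYGB and 2.68 ± 1.81 CPM in sham (SD, n = 5 and 4; 1.63 ± 0.86, limma adjusted p = 0.20). In jejunum and in liver 1 of 20 partners was called lower (5.0%), where 6.29% and 2.60% of all genes were.

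Of the genes of Zfp36-related mRNA decay, 9 of 21 were called lower in WAT (42.9%, where 26.3% of all genes were) and 0 higher by limma (where 14.3% of all genes were), with a median of -0.37. They included Zfp36l2, a paralogue of Zfp36 (-1.30 ± 0.36, limma adjusted p = 0.015), and Cnot1 (-0.84, adjusted p = 0.010), the scaffold of the deadenylase that Zfp36 recruits. Immediate early genes, whose messages Zfp36 can bind, gave 6 lower (33.3%) and 2 higher calls (11.1%) of 18 in WAT, where 26.3% of all genes were called lower and 14.3% higher. Fos averaged 10.8 ± 4.71 CPM in RYGB and 45.7 ± 20.6 CPM in sham WAT (SD, n = 4 and 5; -2.0 ± 0.35, limma adjusted p = 0.0017). Of 12 adipocyte fate genes measured in WAT, 5 were called lower (41.7%) and 2 higher (16.7%), among the lower ones Prdm16 (-0.62, limma adjusted p = 0.017) and Zfp521 (-0.89, limma adjusted p = 0.011), a repressor of fat cell commitment that was not in all 6 tables. Of 15 genes of ribosome quality control measured in WAT, 3 were called lower and 1 higher, shares of 20% and 6.67% that lie below those of all genes.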

How the data were processed

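For each tissue the authors deposited CPM values with 1 decimal, a row per gene and a column per library. The submitters' processing notes name HTSeq and GRCm38, while aligner and strand setting were not given in the sources used here. Every gene listed reached 1 CPM in at least as many libraries as the smaller of both groups. Lines that repeated another were removed, 339 in ileum and 374 in WAT, as were lines without an identifier, 2 in ileum and 6 in liver. Columns summed to 978879 to 993560 CPM. Of 193 library pairs within tissues, 0 held identical values.

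Per tissue, limma 3.58.1 in R 4.3.3 (trend and robust options) was fitted to log2(CPM + 1) of all genes, RYGB minus sham; tests were two-sided, and p was adjusted by Benjamini-Hochberg with 0.05 as the limit. This scale understates changes of genes with low CPM. Each p reflects only how these animals differ. Genes of similar CPM are all other genes, weighted so that they fall into 4 equal classes of mean CPM as the members do; genes of similar GC were weighted likewise over 10 classes of the GC content of the longest transcript. Differences between tissues were fitted with the animal as a block. Coordinates, exons and coding sequences came from GENCODE M21 (GRCm38). A KRAB A box required 8 of 10 conserved residues. Fits were tested on simulated data. Python 3.11.15 with pandas 2.3.3 and matplotlib 3.10.9 was used for tables and figures.

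The members and lists were chosen with earlier results of these data known. Named genes are up to 10 called members per tissue and direction by p (the 10 with the smallest p where fewer passed), members called in 2 or more tissues, with p under 0.05 one way in 3 or more tissues or called between tissues, the 5 highest and 5 lowest by CPM, called genes of the lists, and 27 symbols with known roles, of which 20 are members. Per-library values are given for a part of these. Alternatives were median-of-ratios scaling, a pseudocount of 0.1, a mean CPM of at least 5, removal of each library's trend with exon length, a block for the replicate number, leaving out each library in turn, and duodenum without libraries over 1% pancreatic transcripts; chosen after seeing the data were removal of the GC trend and the liver depth classes. At least 10% of the 50-base words of 20 members occur in other genes, and 16 have over 10% of their exons overlapped on the opposite strand.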

Additional observations from a re-analysis of the deposited data

Results flagged for a closer look

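Between 123 groups of 4 or 5 libraries checked, 5 held a library far from the others of its group, and about 1 in 20 groups would be expected to do so by chance. Zfp36 was 80.3 CPM in RYGB 1 of liver, against 18.2 to 33.9 CPM in the other RYGB livers. Zfp397 was 85.7 CPM in RYGB 5 of liver, where the other RYGB livers had 40.4 to 52.3 CPM. Zfp568 was 14 CPM in sham 4 of duodenum, where the other sham duodena had 8.6 to 10.0 CPM. Zfp37 was 6.8 CPM in sham 5 of duodenum, where the other sham duodena had 0.5 to 1.7 CPM. Zfp106 was 204.9 CPM in sham 4 of ileum, the library rich in proliferation markers, where the other sham ilea had 90.3 to 121 CPM.

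Some RYGB differences differed between tissues in a test of the difference itself, in the 8 animals that gave both tissues. The RYGB animals were R2, R4 and R5 for jejunum minus duodenum and R1, R2 and R4 for WAT minus jejunum. The latter thus left out R5, the RYGB jejunum lowest in Zfp37, and R3, the RYGB WAT nearest to sham in Zfp704. In jejunum minus duodenum the log2 difference was -2.14 for Zfp442, -1.64 for Zfp942, -1.52 for Zfp655, -1.58 for Zfp943 and -1.27 for Zfp266. In WAT minus jejunum it was -4.80 for Zfp37, 1.41 for Zfp703, -2.10 for Zfp704, -1.34 for Zfp710, -1.01 for Zfp367, -0.93 for Zfp664, -1.27 for Zfp445, 1.05 for Zfp85 and -1.17 for Zfp251. The value for Zfp708 was 1.93, but all of its 50-base words also occur in another annotated gene.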

How the results depend on the processing

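Counts of called members moved by more than 1.5 times under some settings. The shares of all genes called under the same settings are not given here, so these counts describe the members only. In liver, against 16, they were 47 with the depth class as a term, 27 with the exon length trend removed, 28 under median-of-ratios scaling, 4 in the libraries without coarse steps and 4 with the GC trend removed; the liver median was -0.571 in the coarse-step libraries and 0.056 in the others. In WAT, against 61, 28 were called with the GC trend removed and the median was -0.073; in duodenum that correction gave -0.024. Jejunum minus duodenum gave 2 under median-of-ratios scaling, against 5. The replicate number as a block gave 3 called members in ileum, 6 in jejunum, 0 in liver and 35 in WAT; the numbers name different animals, and same-numbered libraries deviated together at r of -0.352 to 0.556, so they do not pair the samples, and a library whose number has no partner in the other group adds nothing to that fit. The cause of these changes was not tested. Leaving out 1 library gave 0 to 7 called members in duodenum, 8 to 54 in jejunum, 0 in ileum, 0 to 49 in liver, 33 to 86 in WAT and 0 in muscle. The medians then ranged over 0.15 to 0.39 in duodenum, -0.39 to -0.21 in jejunum, -0.24 to 0.064 in ileum, -0.31 to -0.12 in liver, -0.44 to -0.26 in WAT and -0.11 to 0.052 in muscle. Leaving out 1 animal gave 0 to 9 called members for jejunum minus duodenum and 15 to 25 for WAT minus jejunum. No called member named here turned its direction under these settings. Low CPM values, whose read numbers were not given in the sources used here, limit what can be seen in the weakest members.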

Other observations

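Zinc finger genes outside the set, chosen for a look after their values were seen, gave these values. Zfp symbols not listed in all 6 tables had 0 higher and 5 lower calls among 43 genes in jejunum (median log2 fold change -0.18), 0 and 2 among 34 in liver (-0.32), and 4 and 19 among 100 in WAT (-0.19). Zkscan and Zscan genes, which carry a SCAN domain, had 0 higher and 4 lower calls among 15 genes in jejunum (-0.37) and 0 and 6 among 19 in WAT (-0.17). Zbtb genes, which carry a BTB domain, had 0 higher and 2 lower calls among 31 genes in jejunum (-0.23), 0 and 3 among 28 in liver (-0.44) and 0 and 12 among 36 in WAT (-0.24). Klf genes, the Kruppel-like factors, had 0 higher and 1 lower call among 11 genes in jejunum (0.20), 0 and 1 among 12 in liver (0.045) and 1 and 7 among 13 in WAT (-0.77). For comparison, limma called 6.32% of all genes higher and 6.29% lower in jejunum, 2.03% and 2.60% in liver, and 14.3% and 26.3% in WAT. The WAT share called lower was thus below that of all genes for the Zfp symbols not in all 6 tables (19 of 100) and above it for Zbtb (33.3%), Zkscan and Zscan (31.6%) and Klf genes (53.8%).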
